A study of Mus musculus with 21 samples.

Results

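Lung fibroblasts sorted 63 days after silica were compared with lung fibroblasts of untreated mice, over all genes counted. The 6 libraries of this comparison, 3 per group, were chosen by their labels from the 21 libraries of the series. All mice were female C57BL/6 animals carrying the Col1a2-GFP transgene, in which the promoter of the collagen gene Col1a2 drives a green fluorescent protein. Mice of the SiO2 day 63 group received crystalline silica once, at 400 mg/kg in saline, into the throat for aspiration into the lung, a model the series calls progressive. The untreated group received nothing, and no group that aspirated saline alone is among the labels, so the particle, the aspiration and the days elapsed cannot be told apart. For 2 further contrasts the SiO2 day 14 group (same silica dose) and the BLM day 63 group (bleomycin at 2 mg/kg, the model the series calls reversible) served as references. Cells bearing Ter119, CD146, CD45, CD31 or EpCAM were removed and live GFP-positive cells sorted, so that what was measured is the part of the mesenchyme that expresses Col1a2 and lacks CD146. The labels state neither age nor whether the libraries of a group are separate mice. The p-values then measure no more than the spread between these samples, which may be technical.

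Silica particles are taken up by lung macrophages but are not degraded, and the dust remains in the lung, where it forms nodules of inflammatory cells and collagen. Fibroblasts make the collagen and elastic fibres of the alveolar wall. After injury a share of them turn into contractile, matrix-producing myofibroblasts, and resident fibroblasts also shape inflammation through chemokines, complement and growth factors. Alveolar fibroblasts store lipid and lie beside the epithelium, while adventitial fibroblasts line vessels and airways.

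The measure was the count of 3′ end tags per gene symbol, given here as CPM, the count scaled to a common library size. Total counts ran from 2080636 to 3974734 in the untreated libraries and from 3737999 to 4477283 at day 63 of silica, the lowest being untreated replicate 3. Of 23204 symbols, 11669 passed the filter on low counts. The ribosomal RNA entry Rn45s took 0.0887% to 0.112% of counts in the untreated libraries and 0.153% to 0.201% at day 63, so it moved with the group, and its part in the results below was not tested. Fibroblast genes (Col3a1, Col1a2 and Dcn) were counted in every library, and the genes of the antigens used for depletion were at or near 0. Other markers of the depleted cell types were counted, such as Krt19, Eng and Ccl5, and are given below beside the results. Ptprc, which encodes CD45, had 1 count over the 3 untreated and 5 over the 3 silica libraries, Pecam1 (CD31) 2 and 0, Epcam 2 and 0, and Mcam (CD146) 0 and 3.

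Fibroblasts at day 63 of silica differed from untreated fibroblasts in 3249 of the tested genes, 27.8% of them, by edgeR's quasi-likelihood test at a Benjamini-Hochberg adjusted p under 0.05. Of these, 1789 were higher (15.3% of tested genes) and 1460 lower (12.5%), and the changes reached at least 2-fold in 815 higher and 500 lower genes. In 21.7% of tested genes all 3 silica libraries lay above all 3 untreated ones and in 18.5% below. The median log2 fold change over all tested genes was 0.02. With upper quartile scaling 45.7% of the called genes were higher in place of 55.1%. Below, rose and fell mark genes that passed this test, values after a gene are log2 fold changes ± SE, and CPM values are means ± SD of 3 libraries unless all 3 are listed. A list's members are those tested, and the number listed is given for some lists.

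**Figure D1:**
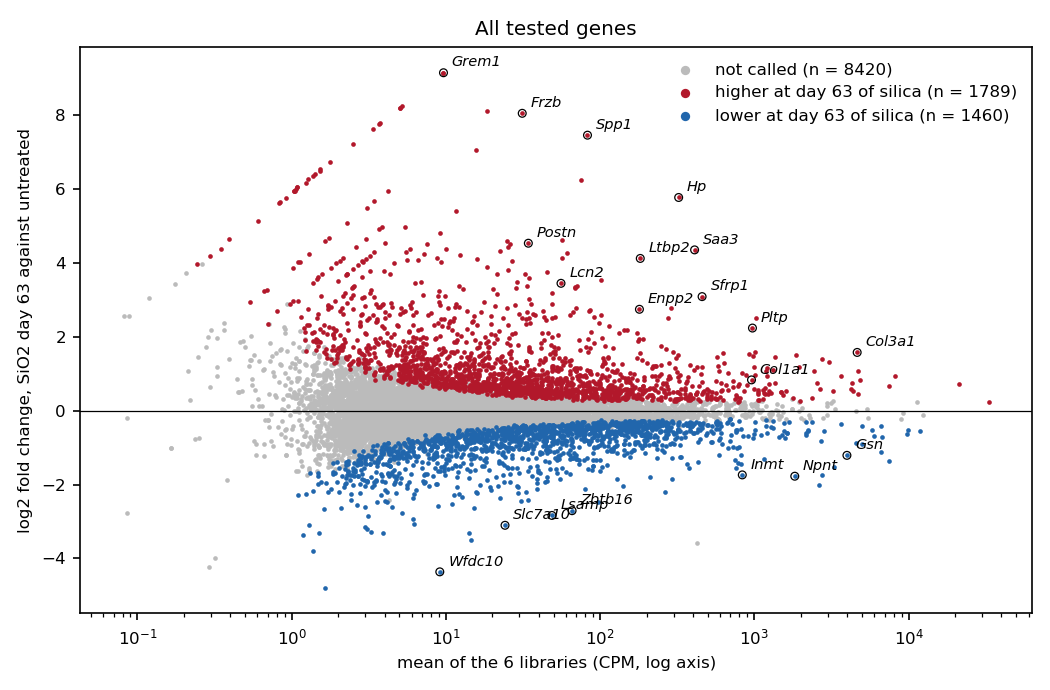
Log2 fold change of each tested gene, SiO2 day 63 against untreated, plotted against its mean over the 6 libraries (CPM, log axis). Red points are the 1789 higher genes, blue points the 1460 lower genes and grey points genes that were not called, and the circled genes are described in the text.

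The steepest rises included secreted regulators that untreated fibroblasts made little of or not at all. Grem1, which encodes the BMP antagonist gremlin, had a count of 0 in all 3 untreated libraries and stood at 11.3, 24.8 and 21.8 CPM at day 63, at least 64.6-fold higher against a floor of 3 counts over the untreated group. Frzb, a secreted Wnt antagonist known from cartilage, stood at 42.6, 70.6 and 73.7 CPM, 314-fold higher (95% counting interval 86.5 to 2595). Spp1, which encodes the matrix phosphoprotein osteopontin, had 1.04, 0.754 and 0.936 CPM in the untreated libraries and 103, 159 and 232 CPM at day 63 (7.46 ± 0.59, adjusted p = 2.5e-11). Spp1 varied most among these within the silica group. Haptoglobin, a haemoglobin-binding protein of the acute phase encoded by Hp, went from 11.7, 11.1 and 12.2 CPM to 572, 631 and 700.2 CPM (5.78 ± 0.21, adjusted p = 4.63e-19). Tags from amplified RNA are not independent molecules, so the floors and intervals here reflect counting error alone.

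Several other genes of this range act at the cell surface or in the nucleus. The transcription factor Tfap2a and the myeloid C-type lectin gene Clec4n, both at 0 counts in untreated fibroblasts, were at least 64-fold and 33.4-fold higher, at 19.1 ± 4.71 and 10.0 ± 0.940 CPM. The synaptotagmin gene Syt13 and the symbol 4833422C13Rik were at least 33.1-fold and 34.8-fold higher. Chl1, a neural adhesion molecule, was 369-fold higher (95% counting interval 65.9 to 14614), and Kif26b, a kinesin family member, was 156-fold higher (95% counting interval 43 to 1297). Tnfrsf21, known as death receptor 6, rose from 1.83 ± 0.428 to 148 ± 51.5 CPM, and Tnfrsf9, the receptor 4-1BB, from 0.494 ± 0.248 to 22.7 ± 4.30 CPM. The wide intervals come from untreated counts of 1 to 3. In the mm10 build (GENCODE vM21), Grem1 lies at chromosome 2, 113746164 to 113758646, Frzb at chromosome 2, 80411970 to 80447625, Spp1 at chromosome 5, 104435118 to 104441050, Hp at chromosome 8, 109575128 to 109579172, Ltbp2 at chromosome 12, 84783212 to 84876532 and Enpp2 at chromosome 15, 54838901 to 54952892.

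The steepest falls included adhesion molecules, receptors and transporters. Lsamp, a neuronal adhesion molecule, had 78.2, 93.2 and 85.2 CPM in the untreated libraries and 9.46, 10.9 and 15.1 CPM at day 63 (-2.84 ± 0.26), and the zinc finger factor Zbtb16, a target of glucocorticoids, 98.7, 79.9 and 165 and 11, 20.5 and 19.8 CPM (-2.71 ± 0.41). Wfdc10 fell from 17.4 ± 10.5 to 0.840 ± 0.204 CPM (-4.36 ± 0.59), the amino acid transporter Slc7a10 from 43.1 ± 9.16 to 5.20 ± 3.49 CPM and the beta-adrenergic receptor Adrb3 from 11.2 ± 2.94 to 1.33 ± 0.273 CPM. Epha1 (-2.94 ± 0.44), Gria1, a glutamate receptor subunit (-2.58 ± 0.37), the cadherin Fat3 (-2.52 ± 0.30), the sulfotransferase Chst7 (-2.48 ± 0.27), Fam222a (-3.50 ± 0.31) and 1810010H24Rik (-2.65 ± 0.32) completed the group chosen by size. LOC102641316 also passed (-3.32 ± 0.86), but it varied widely among untreated libraries, at 13.7, 52 and 11.2 CPM, and lost its call without untreated replicate 2 (-2.24). The rule that chose the rises and falls named by size took only genes whose groups of libraries did not overlap. In sorted cells measured in bulk, fewer cells of a type and less RNA per cell cannot be told apart.

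**Figure D2:**
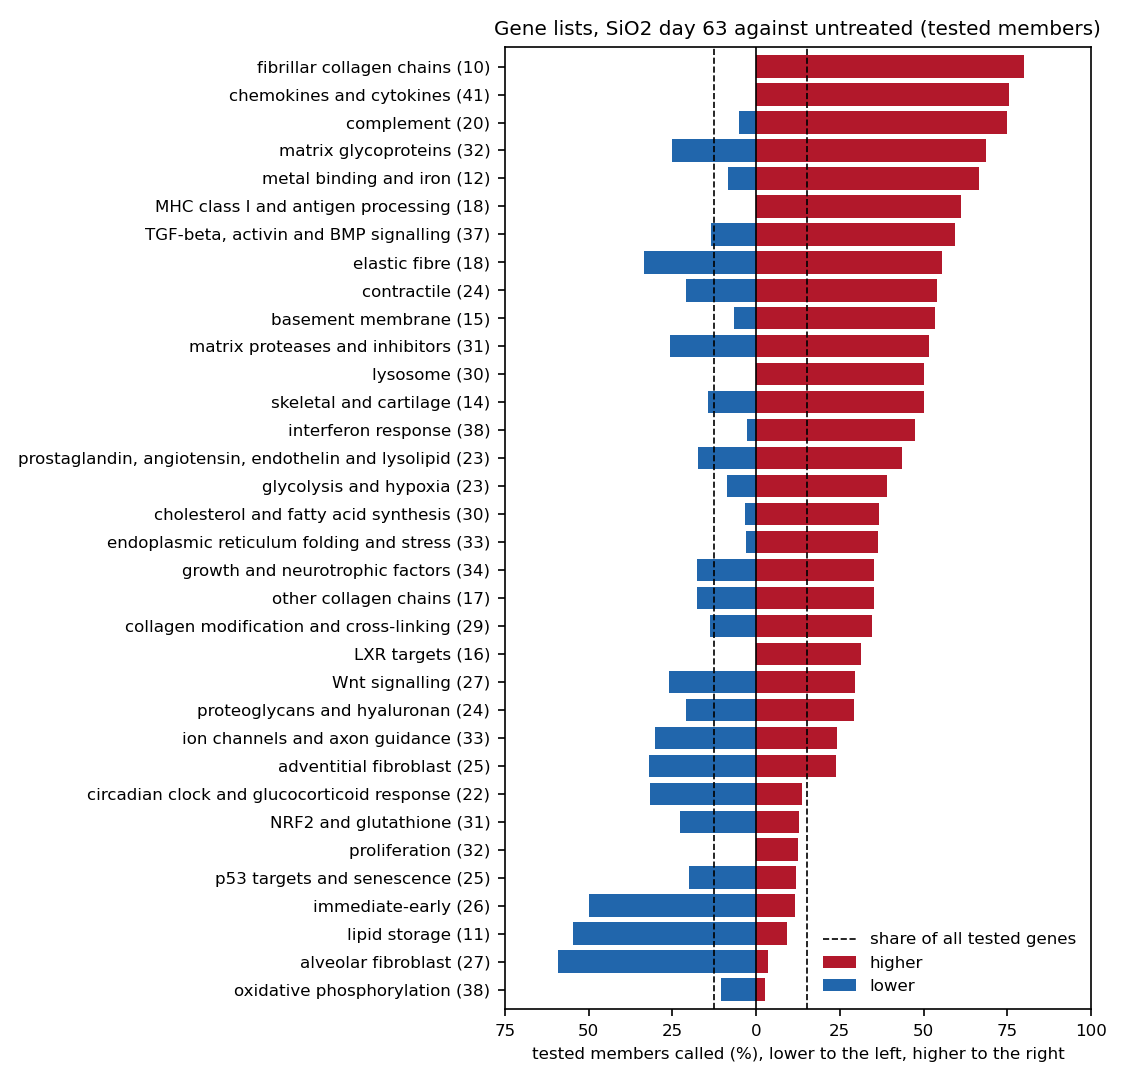
Share of the tested members of each gene list, cell type marker lists left out, that was called higher (red, to the right) or lower (blue, to the left) at day 63 of silica against untreated, with the number of tested members in parentheses. Dashed lines mark the shares among all tested genes, 15.3% higher and 12.5% lower, and the longest red bar is that of the fibrillar collagen chains and the longest blue bar that of the alveolar fibroblast genes.

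Fibrillar collagens, the chains that assemble into the tensile fibres of scar, rose as a group. Of 10 tested chains of 11 listed, 8 rose and 0 fell, with a median log2 fold change of 1.33. The major chains were among those that rose. Col3a1 had 2057, 2465 and 2464 CPM in the untreated libraries and 6980.4, 7138 and 6747 CPM at day 63 (1.58 ± 0.12, adjusted p = 2.5e-11), and Col1a2, whose promoter drives the sorting transgene, 1469, 1619 and 1639.6 and 3388, 3284 and 3303 CPM (1.08 ± 0.10). Col1a1 rose less, from 666, 719 and 681 to 1254, 1226 and 1205 CPM (0.83 ± 0.13). Some minor chains of the same family rose by more on the log2 scale. Col24a1, a chain known from developing bone, rose from 9.07, 3.27 and 5.62 to 106, 108 and 135 CPM (4.27 ± 0.27). Col11a1, a cartilage chain, went from 0.585 ± 0.405 to 17.6 ± 2.83 CPM, and Col5a2, which regulates fibre diameter, from 65.6 ± 6.52 to 282 ± 19.6 CPM (2.11 ± 0.16). The tested chains that did not pass are not among those named here. No library of one group reached into the other for these 6 genes, which adds little because most were named for a small p in this comparison. Among 17 other tested collagen chains (of 21 listed) 6 rose and 3 fell (1 without untreated replicate 1). Col12a1, which decorates fibrils (2.62 ± 0.25), Col28a1 (3.37 ± 0.39) and Col7a1, which forms anchoring fibrils (1.15 ± 0.17), rose, while the transmembrane chain Col13a1 fell from 1638 ± 204 to 665 ± 8.91 CPM (-1.30 ± 0.14).

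Of the enzymes and chaperones that modify and cross-link collagen, 10 of 29 tested (of 30 listed) rose and 4 fell. The prolyl hydroxylase subunit P4ha3 rose from 11.8 ± 1.77 to 86 ± 9.65 CPM (2.89 ± 0.22), the cross-linking oxidase Loxl2 from 81.1 ± 16.4 to 197 ± 13.6 CPM (1.26 ± 0.14), and P4hb rose too (0.90 ± 0.10). Lox itself, the founding cross-linking oxidase, was at 1440.3 ± 231 and 1576 ± 198 CPM and did not pass (0.13 ± 0.15, adjusted p = 0.57). The procollagen proteinase enhancers fell, Pcolce2 from 482, 463 and 431 to 132, 117 and 133 CPM (-1.85 ± 0.15), as did Pcolce (-0.51 ± 0.11).

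Most tested matrix glycoproteins, which organise fibres and signal to cells, rose. In that list 22 of 32 tested members (of 40 listed) rose and 8 fell, at a median of 0.87. Thrombospondin 2, encoded by Thbs2, stood at 4.92, 7.28 and 5.62 CPM in the untreated and 101, 113 and 106 CPM in the silica libraries (4.14 ± 0.21, adjusted p = 3.61e-15). Periostin, which aids collagen assembly and is encoded by Postn, stood at 2.85, 3.01 and 2.34 and 59.1, 74 and 64.1 CPM (4.54 ± 0.35), and tenascin C (Tnc) at 23.8, 17.8 and 10.3 and 106, 109 and 130.0 CPM (2.67 ± 0.21). Cthrc1, known from myofibroblasts of scarred lung, was low, at 3.68, 3.46 and 3.12 CPM at day 63, and was 33.9-fold higher (95% counting interval 5.76 to 1373) than in untreated fibroblasts. Fibronectin (Fn1) rose from 259.8 ± 21.2 to 486 ± 69.9 CPM (0.90 ± 0.16). In the other direction, nephronectin (Npnt), an integrin ligand of the alveolar wall, fell from 3157, 2724 and 2607 to 881, 800.3 and 800.4 CPM (-1.77 ± 0.14, adjusted p = 1.96e-11), as did Ecm1 (-0.88 ± 0.12). The 3 silica libraries of Npnt lay close together and far below the lowest untreated one.

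Proteoglycans moved in both directions, with 7 of 24 tested members higher and 5 lower (3 lower without SiO2 day 63 replicate 2). Fibromodulin (Fmod) rose from 10.7 ± 3.05 to 58.5 ± 4.0 CPM, syndecan 1 (Sdc1) from 1.38 ± 1.06 to 23.2 ± 0.850 CPM, the hyaluronan receptor Cd44 from 37.5 ± 2.10 to 124 ± 0.793 CPM and Cemip, which degrades hyaluronan, from 11.4 ± 1.62 to 58.3 ± 7.18 CPM. Osteoglycin (Ogn) fell (-1.28 ± 0.14). Decorin (Dcn), the member with the highest CPM, fell from 13441, 13919 and 14886 to 9235, 8545 and 10947 CPM. The call of Dcn was lost without SiO2 day 63 replicate 2 (-0.48). Elastic fibre genes moved in both directions. Elastin (Eln, 0.57 ± 0.16), fibrillin 1 (Fbn1, 0.73 ± 0.11), the microfibril protein Mfap5 (1.13 ± 0.21) and above all Ltbp2 rose, while the elastogenic fibulin Fbln5 (-1.42 ± 0.16) and Ltbp4 (-1.34 ± 0.18) fell. Ltbp2, a microfibril protein of the family that holds latent TGF-beta, had 22, 16.8 and 20.6 CPM in the untreated libraries and 368, 334 and 331 CPM at day 63 (4.12 ± 0.23, adjusted p = 2.32e-14). The whole elastic fibre list counted 10 higher and 6 lower of 18 tested.

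Basement membrane genes, which encode the sheet under epithelium and around vessels, rose in 8 of 15 tested members and fell in 1. Without untreated replicate 1, 5 were called higher. Col4a2 rose from 1775, 1841 and 1609.7 to 3942, 4605 and 4591 CPM (1.33 ± 0.10), as did Col4a1 (1.03 ± 0.15), and the laminin chain Lama5 rose from 132 ± 39 to 312 ± 21 CPM (1.22 ± 0.17). Lama1, a laminin chain known from embryonic basement membrane, had a count of 0 in untreated fibroblasts and was at least 24.8-fold higher. Among matrix proteases and their inhibitors 16 of 31 tested members rose and 8 fell. The inhibitors Timp1, from 12.7, 13.1 and 16.9 to 63.1, 76.7 and 86.8 CPM (2.45 ± 0.17), and Serpine2, from 77.7 ± 5.60 to 299 ± 11.9 CPM, rose together with the collagenase Mmp14 (0.94 ± 0.09), the collagen-degrading cathepsin Ctsk (2.57 ± 0.27) and the plasminogen activator Plat (1.22 ± 0.14). Mmp13, a collagenase at 0 counts in untreated fibroblasts, was at least 22.3-fold higher. The inhibitor Timp3 fell (-0.46 ± 0.13). Members that rose thus stood among both proteases and inhibitors.

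The contractile list, which holds the actins, myosins and tropomyosins of the myofibroblast, had 13 of 24 tested members higher and 5 lower. The lower count was 3 without untreated replicate 1, SiO2 day 63 replicate 1 or SiO2 day 63 replicate 3. Smooth muscle actin (Acta2) stood at 9.58, 7.28 and 7.96 CPM in untreated and 51.5, 55.1 and 48.1 CPM in silica libraries (2.63 ± 0.25, adjusted p = 1.87e-09). Nonmuscle myosin Myh9 (1.42 ± 0.14), tropomyosins Tpm1 (1.35 ± 0.16) and Tpm2 (1.09 ± 0.15) and the actin-binding Synpo2 (1.88 ± 0.28) rose with it, while Myh10 fell (-0.51 ± 0.09). Transgelin (Tagln), which is often read beside Acta2, was at 30.6, 32.9 and 27.2 CPM and 40.7, 47.9 and 53.2 CPM and did not pass (0.64 ± 0.25, adjusted p = 0.0525). Pericyte and smooth muscle markers moved in the same libraries: 8 of 9 tested (of 15 listed) rose, and their sum went from between 129.8 and 147 CPM to between 347 and 367 CPM. Of the 15 listed, Higd1b had 0 counts in all 6 libraries and Mcam 3 counts in 1 silica library, too few to pass the filter. Rgs5, Cnn1, Cox4i2 and Trpc6 had few counts too and did not pass the filter. Pdgfrb (2.10 ± 0.20), which the fibroblast list also holds, and Notch3 (3.46 ± 0.42) rose. The part of these markers in the contractile result was not tested.

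**Figure D3:**
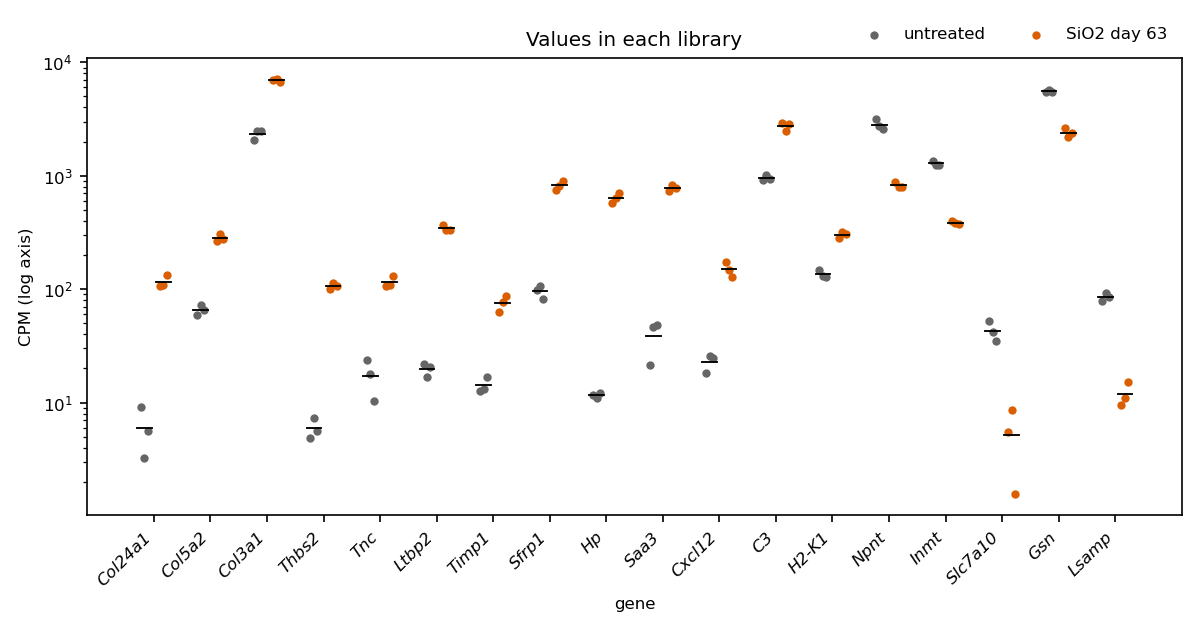
CPM (log axis) of 18 genes in each untreated library (grey points) and each SiO2 day 63 library (orange points), with the group mean as a black bar. The 3 silica points lie above the 3 untreated points for the 13 genes from Col24a1 to H2-K1 and below them for the 5 genes from Npnt to Lsamp.

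TGF-beta, activin and BMP signalling was represented by 37 tested genes of 41 listed, of which 22 rose and 5 fell. The ligand Tgfb1, the main inducer of collagen synthesis, rose from 7.36 ± 2.17 to 17 ± 2.90 CPM, and the activin subunit Inhba, at 4.73, 3.46 and 4.01 CPM at day 63, was 20.3-fold higher (95% counting interval 5.32 to 172). Of the receptors, Bmpr2 rose from 252, 246 and 277 to 591, 582 and 601 CPM (1.20 ± 0.10), as did Tgfbr2 (0.72 ± 0.12), Tgfbr1 (0.80 ± 0.20) and the coreceptor endoglin (Eng, 1.09 ± 0.16), while the coreceptor Tgfbr3 fell (-0.76 ± 0.13). Secreted antagonists rose beside them, among them Grem1, the activin-binding follistatin Fst (2.47 ± 0.33) and Fstl1 (0.84 ± 0.10). The ligand Bmp4 fell (-0.98 ± 0.18).

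Wnt genes moved in both directions, with 8 higher and 7 lower of 27 tested and a median of -0.21. The lower count was 4 without untreated replicate 2. The secreted antagonist Sfrp1 rose from 98.7, 107 and 81.5 to 753, 816 and 893 CPM (3.09 ± 0.18, adjusted p = 5.52e-14), the antagonist Frzb is given above, and Dkk3 rose (0.73 ± 0.12). The agonist Rspo3 also rose, from 6.90 ± 0.918 to 49.5 ± 6.16 CPM, while the ligand Wnt2 (-1.50 ± 0.23), the receptor Fzd4 (-1.15 ± 0.14) and Axin2, a common target of the pathway (-1.10 ± 0.14), fell. Axin2 was at 78.5, 70.6 and 67 CPM in untreated and 39.4, 28.8 and 33.2 CPM in silica libraries, with no overlap. Among growth and neurotrophic factors 12 of 34 tested rose and 6 fell. Gdnf rose from 2.85, 1.26 and 2.34 to 47.3, 39.9 and 41.2 CPM (4.32 ± 0.33) and Bdnf from 1.81, 3.52 and 4.21 to 46.8, 51.9 and 52.5 CPM (4.05 ± 0.32), both known as factors that keep neurons alive. The PDGF receptor Pdgfrb rose from 16.3 ± 4.68 to 67.3 ± 5.75 CPM, as did Igf1 (1.24 ± 0.17), while Figf, which encodes the lymphatic growth factor VEGF-D, fell from 1308, 1129 and 1158 to 449, 426 and 444 CPM (-1.45 ± 0.12).

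Chemokines, cytokines and acute-phase genes rose broadly 63 days after the single dose: 31 of 41 tested members (of 53 listed) rose and 0 fell, at a median of 1.59. Serum amyloid A3 (Saa3), an acute-phase lipoprotein, stood at 21.5, 46.7 and 48.2 CPM in untreated and 731, 832 and 779 CPM in silica libraries (4.36 ± 0.39, adjusted p = 3.38e-10). Lipocalin 2 (Lcn2), which binds bacterial siderophores, stood at 8.29, 11.8 and 7.02 and 125, 90.0 and 92.6 CPM (3.45 ± 0.27). The chemokine Cxcl12, which retains leukocytes in tissue, rose from 18.1, 25.9 and 24.8 to 173, 148 and 129 CPM (2.72 ± 0.16). Every silica library exceeded every untreated library in these 3 genes. Neutrophil-attracting chemokines were among those that rose, namely Cxcl5 (3.28 ± 0.24), Cxcl2 (2.54 ± 0.26), Cxcl3 (2.14 ± 0.25) and Cxcl1 (1.28 ± 0.17), and their counts are uncertain where these related genes share sequence. Monocyte and lymphoid attractants rose too, with Ccl2 (1.43 ± 0.21), Ccl7 (1.59 ± 0.30), Cxcl16 (1.18 ± 0.15), Ccl5 (3.17 ± 0.34) and Ccl19, a ligand of the homing receptor CCR7, from 57.8, 54 and 40.3 to 273, 208 and 221 CPM (2.18 ± 0.19). Of cytokines, the alarmin Il33 rose (2.67 ± 0.26), as did the lymphocyte survival factor Il7 (2.70 ± 0.28), the macrophage growth factors Il34 (4.52 ± 0.49) and Csf1 (0.71 ± 0.12), and the granulocyte factor Csf3 (4.14 ± 0.54). The osteoclast factor Tnfsf11 (RANKL), at 0 counts in untreated fibroblasts, was at least 8.83-fold higher, and its decoy receptor Tnfrsf11b rose (2.93 ± 0.64). The B-cell chemokine Cxcl13 was at 1.55, 5.53 and 3.75 and 2.10, 2.93 and 3.78 CPM and did not pass (-0.27 ± 0.43, adjusted p = 0.693).

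Markers of immune cells were low, and some of them moved. Of 10 tested myeloid markers (of 28 listed) 4 rose and 0 fell. Cd14 rose from 2.95 ± 0.878 to 14.8 ± 1.07 CPM and the signalling adaptor Tyrobp from 3.88 ± 1.68 to 18.1 ± 2.51 CPM. Cd74 was at 4.14, 5.53 and 7.96 CPM in untreated and 4.73, 3.99 and 2.45 CPM in silica libraries and did not pass. Nor did C1qa or H2-Aa, the latter at 1.55, 2.51 and 5.15 and 1.05, 1.86 and 1.34 CPM. The summed list ran from 25.6 to 54.3 CPM in untreated and from 75.7 to 88.1 CPM in silica libraries, with C1qb at 0 in all 6. The lymphocyte list ran from 5.70 to 12.2 CPM and from 43.6 to 51.5 CPM, of which Ccl5 alone made up 38.9 ± 6.65 CPM at day 63. Of 3 tested lymphocyte markers 2 rose, Ccl5 and Igj, and the other, the T-cell gene Cd3d, was at 0.259, 1.26 and 7.49 CPM in untreated and 2.10, 1.06 and 3.12 CPM in silica libraries and did not pass (-0.16 ± 0.72). Cd3g, Cd4, Cd8a, Ms4a1 and Gzmb were at 0 in all 6 libraries, while Cd3e, Cd79a, Cd79b and Gzma had a few counts. The part of such cells in the cytokine result, and in that of Clec4n, was not tested.

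Complement, whose early components fibroblasts are known to secrete, rose in 15 of 20 tested genes (of 28 listed) and fell in 1. The central component C3 rose from 916, 1025 and 928 to 2908, 2491 and 2833 CPM (1.52 ± 0.13, adjusted p = 1.22e-10) and the C1 inhibitor Serping1 from 5537, 5692 and 5631 to 9718, 12061 and 10714 CPM (0.95 ± 0.09). Clusterin (Clu), which blocks assembly of the terminal complex, rose from 17.7 ± 3.44 to 122 ± 7.54 CPM (2.78 ± 0.19), as did C4b (1.21 ± 0.12). The terminal component C7 fell (-1.15 ± 0.15), whereas C6 rose (1.07 ± 0.16), so components of the same terminal complex moved in opposite directions. C4b and C4a are near-identical copies, as are the paired C1r genes with each other and the paired C1s genes with each other. The split within each pair is uncertain.

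Class I MHC genes, which display peptides to cytotoxic T cells, rose in 11 of 18 tested members of their list (of 19 listed, including antigen processing) and fell in 0. The promoters of 4 of them and of a pair of interferon targets are shown because the genes moved together. Each line gives the 250 bases before the gene's start, 5′ to 3′ on the gene's strand, from RefSeq on GRCm38.p6. Capitals mark 2 motifs searched on both strands. The first, of the type that NF-kappa B binds, is GGG and TTCCC with any 2 bases between them. The second, of the type that interferon-activated factors bind, is TTTC and TTTC with any 2 bases between them.
H2-K1, chr17:34000348-34000597, minus strand: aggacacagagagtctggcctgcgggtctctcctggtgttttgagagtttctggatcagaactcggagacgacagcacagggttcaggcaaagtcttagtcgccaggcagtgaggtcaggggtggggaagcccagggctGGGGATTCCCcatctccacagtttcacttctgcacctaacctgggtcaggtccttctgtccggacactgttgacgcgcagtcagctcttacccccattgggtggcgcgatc
H2-D1, chr17:35262844-35263093, plus strand: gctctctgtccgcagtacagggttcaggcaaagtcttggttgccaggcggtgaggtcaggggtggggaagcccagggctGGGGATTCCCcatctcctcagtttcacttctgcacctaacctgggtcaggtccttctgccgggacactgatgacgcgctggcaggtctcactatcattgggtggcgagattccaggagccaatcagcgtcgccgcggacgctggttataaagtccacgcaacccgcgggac
H2-Q7, chr17:35438905-35439154, plus strand: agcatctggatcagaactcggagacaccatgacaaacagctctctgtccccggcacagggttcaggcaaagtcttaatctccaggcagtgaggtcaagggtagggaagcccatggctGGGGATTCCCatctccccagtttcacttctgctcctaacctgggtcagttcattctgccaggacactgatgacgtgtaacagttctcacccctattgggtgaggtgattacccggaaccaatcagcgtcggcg
B2m, chr2:122147437-122147686, plus strand: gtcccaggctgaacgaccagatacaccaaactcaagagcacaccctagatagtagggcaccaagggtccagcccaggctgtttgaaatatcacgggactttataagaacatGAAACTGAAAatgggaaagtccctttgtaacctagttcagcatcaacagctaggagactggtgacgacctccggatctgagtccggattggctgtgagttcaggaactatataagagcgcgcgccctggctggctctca
Isg15, chr4:156200819-156201068, minus strand: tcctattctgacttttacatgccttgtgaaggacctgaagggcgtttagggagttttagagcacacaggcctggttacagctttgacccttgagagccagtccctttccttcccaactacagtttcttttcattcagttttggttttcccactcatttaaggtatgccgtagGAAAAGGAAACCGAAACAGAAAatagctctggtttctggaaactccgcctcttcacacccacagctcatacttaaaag
Ifit3, chr19:34583279-34583528, plus strand: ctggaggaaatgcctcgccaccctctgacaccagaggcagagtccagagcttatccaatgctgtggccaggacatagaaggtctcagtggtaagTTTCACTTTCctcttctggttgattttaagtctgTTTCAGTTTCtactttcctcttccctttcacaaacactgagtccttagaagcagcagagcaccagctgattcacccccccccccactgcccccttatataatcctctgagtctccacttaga

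The 3 class I heavy chain genes hold the same 10 letters, GGGGATTCCC, at 111 to 102 (H2-K1), 171 to 162 (H2-D1) and 133 to 124 (H2-Q7) bases before the start. Of 17 genes of the MHC list with a promoter in the table, 5 (29.4%) hold the first motif in this window, against 1.75% of 27025 genes, and 3 (17.6%) hold the second, against 3.46%. Of 29 genes of the interferon list 15 (51.7%) hold the second motif and 0 hold the first, and in Isg15 the matches overlap. The heavy chain promoters are copies of each other in part, so their matches are not independent, and a match describes letters and not a bound site.

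H2-K1 had 147, 131 and 129 CPM in untreated and 283, 317 and 304 CPM in silica libraries (1.15 ± 0.15, adjusted p = 6.75e-07), and H2-D1 had 30.8, 23.1 and 27.2 and 73.1, 88.4 and 55.2 CPM (1.41 ± 0.19). The nonclassical genes rose by more, H2-Q7 from 5.44, 5.28 and 4.68 to 49.4, 55.4 and 51 CPM (3.31 ± 0.28) and H2-Q6 from 14.5, 11.8 and 9.83 to 124, 140.0 and 111 CPM (3.34 ± 0.21). These H2 genes are near-identical copies, and how tags were split among them is uncertain. The shared light chain B2m, a gene of its own, rose from 105, 97.2 and 109 to 263, 290.2 and 253 CPM (1.38 ± 0.12), as did the immunoproteasome subunit Psmb8 (0.68 ± 0.12). The groups of libraries did not overlap in any of the 5 genes whose values are listed.

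Interferon-response genes rose in 18 of 38 tested members (of 40 listed) and fell in 1, at a median of 0.40. The ubiquitin-like modifier Isg15 rose from 75.9, 54.8 and 50.1 to 195, 181 and 122 CPM (1.44 ± 0.27) and the RNA-binding effector Ifit3 from 102, 91.4 and 84.3 to 269, 284 and 263 CPM (1.55 ± 0.29). The deconjugating enzyme Usp18 (2.09 ± 0.35), Trim30a (2.50 ± 0.29) and the RNA sensor Ddx58 (0.86 ± 0.17) rose too. Irf1, a factor that is itself induced by interferon, fell (-0.56 ± 0.17), and this call was lost without untreated replicate 2 (-0.47) or SiO2 day 63 replicate 2 (-0.52). Gbp5 did not pass (0.12 ± 0.20). The adjusted p of Irf1 was 0.0128, and that of Cdkn1a, given below, rounded to the same value.

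Most genes that mark alveolar fibroblasts fell. Of 27 tested members of that list (of 27 listed) 16 fell and 1 rose, with a median of -0.62. The methyltransferase Inmt had 1359, 1246 and 1250.1 CPM in untreated and 396, 386 and 373 CPM in silica libraries (-1.74 ± 0.23, adjusted p = 7.9e-07). Tcf21, a transcription factor of lung lipofibroblasts, fell from 189.9, 151 and 159.7 to 80.9, 99 and 78.8 CPM (-0.95 ± 0.14), as did the retinoic acid enzyme Aldh1a1 (-1.06 ± 0.14), Limch1 (-0.62 ± 0.09) and Mettl7a1 (-1.29 ± 0.14). Enpp2, the one member that rose, encodes autotaxin, which makes the signalling lipid lysophosphatidic acid, and it stood at 49.5, 42.5 and 48.2 and 329.8, 301 and 308 CPM (2.75 ± 0.16, adjusted p = 5.52e-14).

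Lipid handling changed in the same samples. Of 11 tested lipid storage genes (of 20 listed) 6 fell and 1 rose. G0s2, which inhibits fat breakdown, fell from 4684, 4431 and 3540.0 to 1333, 1261 and 1211 CPM (-1.73 ± 0.20), and the lipases Lipe (-1.59 ± 0.18) and Pnpla2 (-0.92 ± 0.13) and the droplet protein Plin2 (-0.54 ± 0.11) fell with it, while lipoprotein lipase (Lpl), which releases fatty acids from circulating lipoproteins, rose from 66.1, 86.2 and 94.6 to 486, 507 and 415 CPM (2.52 ± 0.20). Targets of the sterol receptor LXR rose in 5 of 16 tested, among them Pltp, which transfers phospholipids, from 307, 309 and 406 to 2001, 1708 and 1102 CPM (2.24 ± 0.22), and the cholesterol exporter Abca1 (1.36 ± 0.15). The receptor gene Nr1h3 (-0.29 ± 0.13, adjusted p = 0.0853) and its target Srebf1 (0.23 ± 0.22, adjusted p = 0.468) did not pass. Sterol and fatty acid synthesis genes rose in 11 of 30 and fell in 1, with Cyp51 (1.22 ± 0.16), Sqle (1.53 ± 0.21) and the elongase Elovl6 (1.83 ± 0.25) among those that rose.

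Adventitial fibroblast genes were mixed, 6 higher and 8 lower of 25 tested. Pi16, a marker of these cells, fell from 134, 129 and 113 to 39.2, 30.1 and 55.9 CPM (-1.58 ± 0.18), Clec3b from 46.7 ± 2.73 to 11.4 ± 1.38 CPM (-2.05 ± 0.19) and gelsolin (Gsn), which severs actin, from 5507, 5690.1 and 5486 to 2659.7, 2178 and 2378 CPM (-1.21 ± 0.16). Il33, Igfbp4 (1.09 ± 0.11) and Mfap5 were among those that rose. Mesothelial markers fell in the same libraries: 5 of 10 tested fell and 0 rose, and the summed list went from between 534 and 668 CPM to between 239 and 273 CPM. Most of this sum was Upk1b, at 438, 441 and 523 CPM in untreated and 173, 208 and 202 CPM in silica libraries. Upk1b (-1.26 ± 0.12) and Krt19 (-1.68 ± 0.28) fell, mesothelin (Msln) was at 21.1 ± 5.49 and 14.2 ± 3.52 CPM and did not pass, and Lgals7 was at 0. Epithelial markers summed to between 84.2 and 133 CPM and to between 32.7 and 48.9 CPM, most of it Krt19, which both lists hold, with Cdh1, Lamp3 and Napsa at 0 in all 6 libraries. The part of these cells in the falls was not tested. For endothelial markers 4 of 8 tested rose and 2 fell. Plvap rose from 1.30, 0.754 and 0.468 to 7.36, 7.99 and 5.12 CPM, Eng is given above, and Tek fell from 19.7, 18.8 and 22.5 to 10.2, 9.58 and 9.79 CPM, while Cldn5 and Vwf were at 0. The count of higher endothelial markers was 2 without untreated replicate 1 or 2, and that of lower mesothelial markers was 2 without untreated replicate 2 and 3 without SiO2 day 63 replicate 3. Schwann and neural markers gave 2 higher and 1 lower of 4, and 0 erythroid markers passed the filter.

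**Figure D4:**
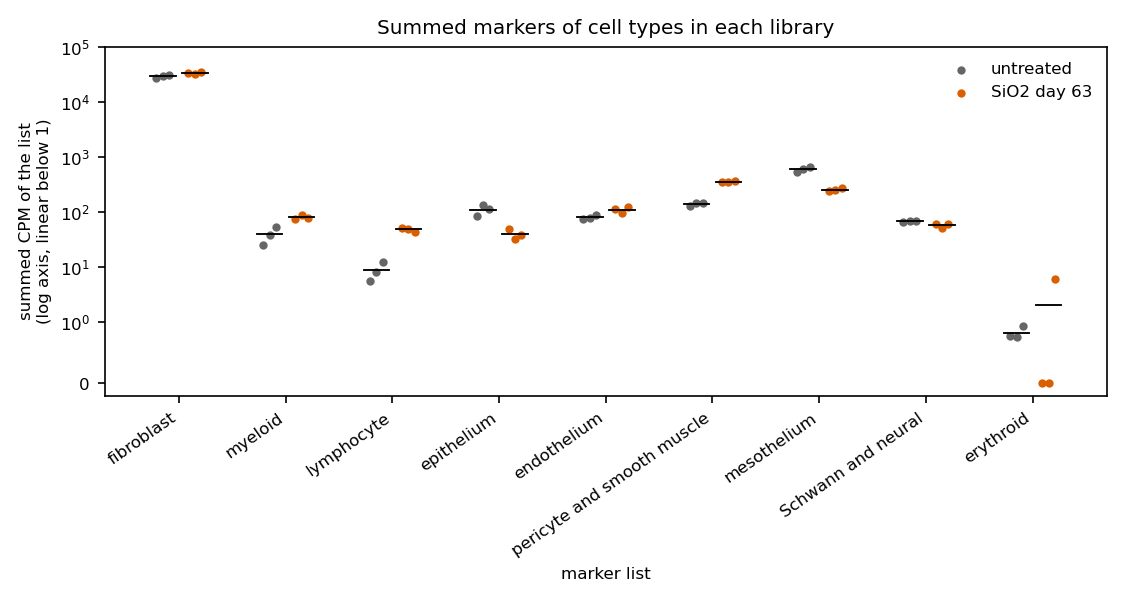
Summed CPM of the markers of each cell type (log axis, linear below 1) in each untreated library (grey) and each SiO2 day 63 library (orange), with the group mean as a black bar. The fibroblast markers sum to between 27671 and 34818 CPM in every library. The fibroblast, myeloid, lymphocyte, endothelial and pericyte and smooth muscle sums are higher in all 3 silica libraries than in any untreated one. The epithelial, mesothelial and Schwann and neural sums are lower in all 3.

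Genes for iron handling, lysosomes and protein folding rose more often than they fell. Of 12 tested metal and iron genes 8 rose and 1 fell. The ferroxidase ceruloplasmin (Cp) rose from 652, 689.8 and 833 to 1889, 2063 and 2025 CPM (1.46 ± 0.11) and the ferritin heavy chain Fth1 from 768, 837 and 890.0 to 1740.1, 1769 and 1877 CPM (1.11 ± 0.11), as did the metal importer Slc39a14 (2.79 ± 0.22) and the iron exporter Slc40a1 (2.08 ± 0.25), while transferrin (Trf) fell (-0.61 ± 0.15). Importers, exporters and storage thus all had a member that rose. Lysosomal genes rose in 15 of 30 tested and fell in 0, with the proteases Ctsb (1.02 ± 0.09) and Ctsd (0.45 ± 0.09) and the glycoprotein Gpnmb, from 4.69 ± 1.33 to 52.8 ± 4.34 CPM. Endoplasmic reticulum genes rose in 12 of 33 and fell in 1, and the rises of the chaperones Canx (0.77 ± 0.09), Pdia3 (0.59 ± 0.09) and Hsp90b1 (0.55 ± 0.13) were small.

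Glycolysis and hypoxia genes rose in 9 of 23 tested and fell in 2. The lactate carrier Slc16a1 rose from 35.7, 38.9 and 41.7 to 152, 207 and 206 CPM (2.29 ± 0.16), the hypoxia factor Hif1a from 49.7, 58.8 and 63.7 to 172, 208 and 176 CPM (1.70 ± 0.16), as did the glucose carrier Slc2a1 (0.78 ± 0.10). Aldoa did not pass (-0.13 ± 0.10). In oxidative phosphorylation 1 gene rose, Sdhc, and 4 fell of 38 tested, at a median of 0.06, a share under that of all genes in both directions. The call of Sdhc was lost without SiO2 day 63 replicate 3 (0.27), and the lower count was 1 without that library, SiO2 day 63 replicate 2 or untreated replicate 2. Antioxidant genes split: mitochondrial superoxide dismutase (Sod2), which NF-kappa B induces, rose from 1087, 1368 and 1106 to 2997, 2744 and 2387 CPM (1.19 ± 0.13), while the glutathione transferases Gsta3 (-1.61 ± 0.23) and Gstm1 (-1.53 ± 0.23) fell. That list counted 4 higher and 7 lower of 31, although its median was 0.15. Its higher share was under the 15.3% of all tested genes, and its lower share was above the 12.5%. The higher count was 2 without SiO2 day 63 replicate 1 and the lower count 4 without SiO2 day 63 replicate 3.

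Immediate-early genes, which cells switch on within minutes of a stimulus and during tissue digestion, fell in 13 of 26 tested members and rose in 3. Nr4a2 (-1.49 ± 0.22), Nr4a1 (-0.83 ± 0.14), Egr1 (-0.68 ± 0.11) and Ier2 (-0.64 ± 0.12) fell, Klf6 rose from 682, 786 and 818 to 1488, 1687 and 1634 CPM (1.07 ± 0.10), and Fos did not pass (-0.23 ± 0.11). Without untreated replicate 2 the lower counts were 8 in this list and 4 in the next. Circadian and glucocorticoid genes gave 3 higher and 7 lower of 22. Tsc22d3, a glucocorticoid target, fell (-1.19 ± 0.23), but its untreated libraries spread widely, at 575, 948 and 1901 CPM, while Fkbp5, another such target, rose (1.82 ± 0.28). Of 32 tested proliferation genes 4 rose and 0 fell, under the 15.3% of all genes. That count was 0 without untreated replicate 1 and 2 without untreated replicate 2 or SiO2 day 63 replicate 3. The cycling marker Mki67 was at 0.518, 1.26 and 2.81 CPM in untreated and 1.58, 2.13 and 2.45 CPM in silica libraries and did not pass (0.64 ± 0.59, adjusted p = 0.467), and Top2a (1.62 ± 0.43, adjusted p = 0.00443) lost its call without untreated replicate 1 (1.11). The p53 and senescence list counted 3 higher and 5 lower of 25. Its higher share was under the 15.3% of all tested genes and its lower share above the 12.5%. Its higher count was 1 without untreated replicate 2, and its lower count was 2 without untreated replicate 3 and 3 without SiO2 day 63 replicate 2. The cell cycle inhibitor Cdkn1a fell (-0.48 ± 0.15, adjusted p = 0.0128) and lost its call without untreated replicate 2 (-0.41) or untreated replicate 3 (-0.31).

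The direct comparison of day 63 with day 14 of silica asked which late values differ from the earlier ones. It called 411 genes (3.52% of those tested), 178 higher at day 63 (1.53%) and 233 lower (2%). This count was sensitive to single libraries: it was 201 without SiO2 day 63 replicate 2, 231 without SiO2 day 14 replicate 3, 249 without SiO2 day 63 replicate 3 and 265 without SiO2 day 63 replicate 1. The comparison uses the same 3 SiO2 day 63 libraries as the comparison with untreated fibroblasts. A gene that was not called is not shown to be equal at the 2 times.

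Matrix and smooth muscle genes of late silica were among those higher than at day 14. Cilp, a matrix protein known from cartilage, had 9.81, 19.5 and 13.8 CPM at day 14 and 56.5, 57.5 and 73.2 CPM at day 63 (difference 2.11 ± 0.30, adjusted p = 5.41e-05), while untreated libraries held 11.1, 6.28 and 4.21 CPM. Enpp2 had 122, 141 and 95 CPM at day 14 (difference 1.39 ± 0.15, adjusted p = 7.38e-07), Postn 31.4 ± 13.8 CPM (1.08 ± 0.24), Acta2 31.1 ± 11 CPM (0.74 ± 0.21) and Frzb 28 ± 12 CPM (1.17 ± 0.34). Postn and Acta2 had been at 57.3 ± 17.3 and 90.8 ± 10.6 CPM at day 7, so their day 14 means were the lowest of the 3 times. Ankrd1, a target of the mechanosensitive factor YAP, was higher too (2.09 ± 0.32), as were Snhg11 (2.64 ± 0.26) and the symbols LOC105243805, LOC105243845 and LOC105243767. Of immune genes, Ccl19 (0.88 ± 0.17), Clu (1.44 ± 0.17) and H2-Q6 (1.26 ± 0.18) were higher than at day 14. Pltp was at 948 ± 210.1 CPM at day 14 (0.76 ± 0.21) and Ace, the angiotensin-converting enzyme, at 51.2 ± 11.6 CPM (0.79 ± 0.18). Without SiO2 day 14 replicate 3 the differences of Postn (0.75) and Ace (0.61) were no longer called. That of Acta2 was lost without SiO2 day 14 replicate 2 or 3 or any 1 library of day 63 (lowest 0.50). That of Frzb was lost without SiO2 day 14 replicate 1 or 3 or SiO2 day 63 replicate 2 or 3 (lowest 0.84), and that of Pltp without SiO2 day 14 replicate 1 or 3 or SiO2 day 63 replicate 1 or 2 (lowest 0.57). In this contrast the chemokine and cytokine list counted 3 higher and 3 lower of 41 tested. Complement counted 1 higher and 3 lower of 20, interferon-response genes 1 and 3 of 38, and the MHC list 2 and 0 of 18. Over all tested genes the shares were 1.53% higher and 2% lower.

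Some matrix and adventitial fibroblast genes were lower than at day 14. Elastic fibre genes counted 0 higher and 5 lower of 18, basement membrane genes 0 and 3 of 15, and proteoglycans 1 and 3 of 24. Collagen modification genes counted 0 higher and 2 lower of 29, matrix glycoproteins 4 and 2 of 32, and matrix proteases and inhibitors 3 and 2 of 31. Of the fibrillar chains 1 of 10 was lower, Col1a1, and 0 higher. Of the other collagen chains 0 of 17 were lower and 2 higher, Col12a1 (0.80 ± 0.21) and Col28a1 (1.02 ± 0.28). The call of Col12a1 was lost without SiO2 day 14 replicate 1 or 3 or SiO2 day 63 replicate 2 or 3 (lowest 0.56), and that of Col28a1 without SiO2 day 14 replicate 3 or any 1 library of day 63 (lowest 0.68). Col1a1 had 4012, 4454 and 4669 CPM at day 7, 2325, 2643 and 1912 CPM at day 14 and 1254, 1226 and 1205 CPM at day 63, the last below every library of the 2 earlier times (difference from day 14 -0.90 ± 0.13, adjusted p = 7.39e-05). Sparc, which binds collagen (-0.52 ± 0.09), Eln (-0.76 ± 0.16), decorin (Dcn, -0.60 ± 0.16), Pi16 (-1.56 ± 0.18) and the chemokine Cxcl13 (-2.43 ± 0.33) were lower as well. The largest differences by the rule were those of Cxcl13, Wfdc10 (-3.64 ± 0.62), the endocytic receptor Lrp2 (-2.41 ± 0.40), Fxyd3 (-2.23 ± 0.35), Hey2 (-1.99 ± 0.29) and the mesothelial marker Lrrn4 (-1.92 ± 0.39). Of the mesothelial markers 7 of 10 tested were lower than at day 14, and of the adventitial list 9 of 25. Their part in the other falls was not tested. The difference of Lrrn4 was no longer called without SiO2 day 14 replicate 3 (-1.53), and that of Dcn without SiO2 day 14 replicate 1 or 3 or SiO2 day 63 replicate 1 or 2 (from -0.61 to -0.52).

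**Figure D5:**
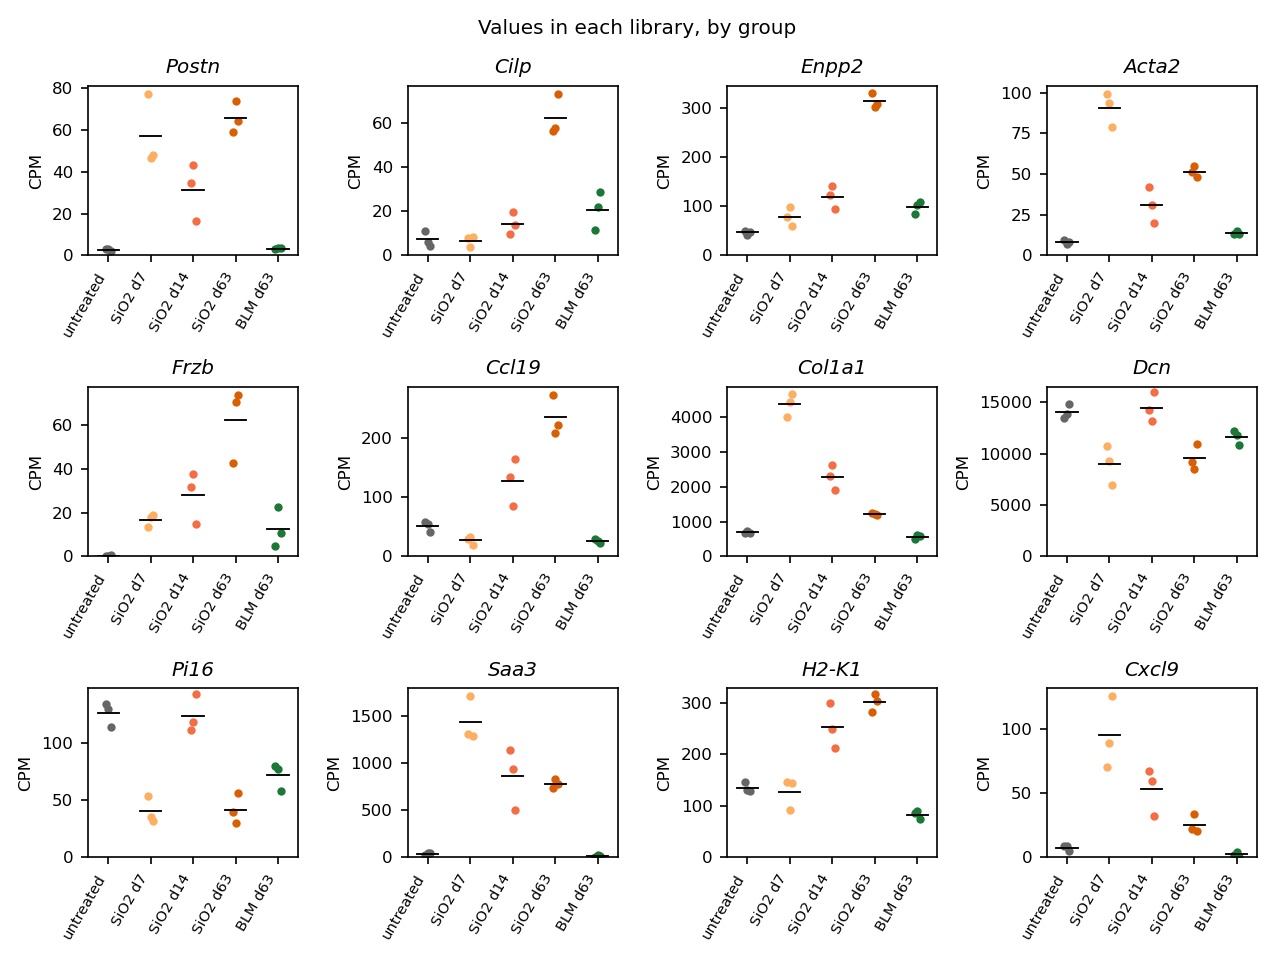
CPM of 12 genes in each library of the untreated, SiO2 day 7, 14 and 63 and BLM day 63 groups (3 points each, black bar for the mean). The means of Postn, Cilp, Enpp2, Acta2, Frzb and Ccl19 are higher at SiO2 day 63 than at SiO2 day 14, those of Col1a1, Dcn, Pi16 and Cxcl9 are lower, and the BLM day 63 points of Saa3, H2-K1 and Cxcl9 lie below the untreated points.

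The direct comparison of the 2 models at day 63 asked where late silica differs from late bleomycin. It called 1816 genes (15.6%), 1065 higher after silica (9.13%) and 751 lower (6.44%). With upper quartile scaling the share of called genes that were higher was 50.6% in place of 58.6%. Of the 1789 genes higher in silica than in untreated fibroblasts, 804 were also higher than in bleomycin and 14 lower, and of the 1460 lower genes 536 were lower than in bleomycin and 5 higher. Both comparisons share the silica libraries.

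Inflammatory genes were mostly higher after silica. Of the chemokines and cytokines 32 of 41 tested were higher after silica than after bleomycin and 1 lower, of the interferon-response genes 29 of 38 and 1, of the MHC list 13 of 18 and 0, and of complement 13 of 20 and 1. Saa3 had 7.96, 20.7 and 10.2 CPM in the bleomycin libraries, below each of the untreated ones (silica against bleomycin 5.94 ± 0.43, adjusted p = 9.29e-12). Cxcl5 had 0, 0.861 and 0.667 CPM (6.12 ± 0.34) and Lcn2 2.24, 4.59 and 0.667 CPM (5.43 ± 0.33). The rule also named Tnfrsf9, at 1.49, 0 and 0 CPM after bleomycin and 18.9, 21.8 and 27.4 CPM after silica, Clstn2, at 0.249, 0.287 and 0 and 7.10, 13.8 and 12.5 CPM, and Parm1, at 0, 0.574 and 0 and 11.6, 9.05 and 10.9 CPM. No fold is given for these 3 genes, whose bleomycin counts were few. The bleomycin counts of Cxcl5 were few as well, so the size of its difference is uncertain.

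Fibrillar collagen genes were also higher after silica than after bleomycin at day 63, while 4 of the 5 other matrix lists given here held genes called in both directions. Of 10 tested fibrillar collagen chains 8 were higher and 0 lower. The counts were 16 higher and 5 lower of 32 matrix glycoproteins, 4 higher and 3 lower of 17 other collagen chains, 7 higher and 5 lower of 24 proteoglycan and hyaluronan genes, 6 higher and 3 lower of 18 elastic fibre genes, and 6 higher and 0 lower of 15 basement membrane genes. Col3a1 was at 2519, 3807 and 3098 CPM after bleomycin (1.15 ± 0.12), Postn at 2.99, 3.44 and 3.34 CPM (4.32 ± 0.32), Ltbp2 at 90.0 ± 25.1 CPM (1.93 ± 0.19), Thbs2 at 16.7 ± 4.83 CPM (2.67 ± 0.17) and Spp1 at 8.95 ± 4.61 CPM (4.24 ± 0.40). Postn after bleomycin was near its untreated values. Alveolar fibroblast genes were lower after silica in 15 of 27 tested and higher in 2. Inmt stood at 1356, 1270.4 and 1343 CPM after bleomycin (-1.78 ± 0.23), in the range of the untreated libraries, and Npnt at 1836, 1573 and 1569 CPM (-1.0 ± 0.13), between the untreated and the silica libraries. Immediate-early genes were lower after silica in 16 of 26 and higher in 3. By size the genes lower after silica were led by Rabac1, Alcam (-2.05 ± 0.18), Fat3 (-1.99 ± 0.31), Lsamp (-1.98 ± 0.26), Rab6b (-1.97 ± 0.42) and Agtr1b (-1.94 ± 0.23). Rabac1 was at 89.6, 86.1 and 3966 CPM in the bleomycin libraries and 54.4, 66.6 and 77.5 CPM in those of silica, and its difference, called at -4.38, was -0.41 and not called without BLM day 63 replicate 3.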

How the data were processed

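The 3′SAGE-seq libraries were made from sorted fibroblasts, and the deposited files held raw counts of tags per gene symbol for each library, without normalization, as the values show. The submitters' processing notes name Bowtie2 2.2.5 and mm10. The annotation, the counting program and the strand setting are not given in the sources used here, so near-identical and overlapping genes are uncertain. Symbols were used as deposited, and 17830 (76.8%) matched GENCODE vM21.

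Groups were taken from the labels. Counts of all 21 libraries (7 groups of 3) were filtered with filterByExpr, scaled by TMM and fitted in 1 quasi-likelihood model with edgeR 4.0.16 (R 4.3.3, 14 residual degrees of freedom). All groups shared the estimate of spread, and adjusted p-values are Benjamini-Hochberg values over 11669 genes per contrast. CPM used the scaled library sizes. Genes at 0 counts in a group are given as bounds against 3 counts over the group, and genes with 1 to 3 counts with exact 95% intervals. Steps were tested on simulated data. Total counts were at least 2080636 per library.

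The members and the gene lists were chosen with earlier results of these data known, so lists are described by counts and medians without a test. Named were, among called genes with groups that did not overlap and a higher mean of 10 CPM or more, the 12 largest and 12 smallest log2 fold changes against untreated and 6 and 6 in the other contrasts. Named too were, per list, up to 6 members with the smallest adjusted p, up to 3 with the highest mean, and a fixed set that includes Col1a1, Acta2, Postn, Tcf21 and Mki67. Genes named for a small p or a large change were likely to have groups that did not overlap, so that trait is no further support for them. Genes outside this rule, such as Col11a1, Mmp13, Tgfb1, Inhba, Tgfbr1, Tgfbr2, Tgfbr3, Bmp4, Igf1, Rn45s, Cxcl9, Csf1, Il7, Il34 and several chemokines, were chosen after their values were seen. Promoters came from RefSeq (GRCm38.p6). Alternatives were other scalings (RLE, upper quartile), other filters, DESeq2 1.42.0, limma 3.58.1 (voom), the compared groups alone, a replicate block and leaving out single libraries.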

Additional observations from a re-analysis of the deposited data

Results flagged for a closer look

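A set of 35 genes was called in opposite directions against untreated fibroblasts in the 2 models at day 63, with the direct difference between the models also called by edgeR, among 1012 genes called against untreated in both. Of the 35, 27 were higher and 8 lower after silica. Those named in the text are given here by the log2 difference, silica minus bleomycin. They were singled out by those calls, one model being called above and the other below untreated fibroblasts. The acute-phase and neutrophil-related genes differed by 6.12 (Cxcl5, at few counts after bleomycin), 5.94 (Saa3), 5.43 (Lcn2) and 3.49 (Cxcl3). The monocyte and lymphocyte chemokines differed by 3.47 (Cxcl9), 3.16 (Ccl19), 3.07 (Ccl7) and 2.22 (Ccl2). Antigen presentation genes differed by 1.86 (H2-K1) and 1.15 (Psmb8), and the matrix protein gene Sparc by 1.09. Lower after silica and higher after bleomycin were Cdkn1a (-1.13) and the protease inhibitor gene Timp3 (-0.88). Both comparisons with untreated fibroblasts share the 3 untreated libraries. The call of Cdkn1a against untreated was lost without untreated replicate 2 or 3.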

How the results depend on the processing

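The count of genes called against untreated, 3249, ran from 2629 to 2938 when each library was left out in turn, and was 2769 with DESeq2, 3073 with at least 5 CPM in 3 libraries and 3311 with upper quartile scaling. The count against bleomycin, 1816, ran from 1354 to 1502 without single libraries and was 1487 with DESeq2. The count against day 14, 411, moved most: it ran from 201 to 325 without single libraries, where fewer samples enter the fit, and was 600 with no filter. Across all named genes and lists, 457 values lost a call, 176 gained one and 116, among them list counts, moved. Of the genes called in the main fit, 0 reversed direction. The other 15181 values were genes that kept their side of the threshold and list counts or marker sums that moved little. A gene that was not called could change direction and still be counted among these. No replicate number was found to pair libraries, as deviations of same-numbered libraries correlated between -0.02 and 0.03. The replicate block gave 3183, 387 and 1780 calls in the 3 comparisons. With 3 libraries a group and untreated replicate 3 at 2080636 counts, differences in genes of a few CPM were the least certain.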

Other observations

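Genes known from bone and cartilage were higher at day 63 of silica in 7 of 14 tested members of that list (of 29 listed) and lower in 2. Of the listed genes 4 had 0 counts in all 6 libraries. Runx2, the master factor of osteoblasts, was at 4.14, 6.03 and 5.15 CPM in untreated and 32.3, 37 and 39.6 CPM in silica libraries (2.82 ± 0.25 by edgeR's quasi-likelihood test, adjusted p = 2.01e-10), and Runx1 at 14, 13.3 and 18.7 and 93.8, 77.7 and 87 CPM (2.53 ± 0.18). Mkx, a tendon factor, was 14.1-fold higher (95% counting interval 4.55 to 70.5), and Mgp, which inhibits calcification, rose (0.74 ± 0.09). Lipid mediator and vasoactive genes rose in 10 of 23 tested and fell in 4 (2 without untreated replicate 1 or SiO2 day 63 replicate 3). The lysophosphatidic acid receptor Lpar1 rose from 441, 429.8 and 491 to 785, 798 and 723 CPM (0.76 ± 0.10), beside the rise of Enpp2, whose product makes its ligand. Ace rose from 14.2, 7.03 and 6.55 to 83.6, 91.3 and 90.4 CPM (3.19 ± 0.23), as did the cyclooxygenase Ptgs1 (1.60 ± 0.17), while prostacyclin synthase Ptgis fell (-0.83 ± 0.10).

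Ion channel and axon guidance genes split, 8 higher and 10 lower of 33 tested, the lower count being 5 without untreated replicate 2 and 6 without SiO2 day 63 replicate 2. The mechanosensitive channel Piezo2 was at 4.66, 6.78 and 7.49 CPM in untreated and 72.3, 92.4 and 87 CPM in silica libraries (3.76 ± 0.30, adjusted p = 2.99e-11 by edgeR), whereas its paralogue Piezo1 was at 245 ± 24.7 and 229.9 ± 0.996 CPM and did not pass (-0.09 ± 0.10). The sodium channel Scn3a fell from 382, 309 and 285 to 104, 85.5 and 93.3 CPM (-1.79 ± 0.19), as did the guidance factor Slit3 (-1.28 ± 0.14).

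Rabac1, which encodes a Rab-binding membrane protein, varied without regard to the groups. Its values were 79.8, 2203 and 85.7 CPM in the untreated libraries, 1585, 47.4 and 72.2 CPM at day 14 and 54.4, 66.6 and 77.5 CPM at day 63 of silica, and 89.6, 86.1 and 3966 CPM at day 63 of bleomycin. In 3 of these 4 groups 1 library stood far above the other two. LOC102641316 was also highest in the same libraries, at 13.7, 52 and 11.2 CPM, 40.7, 7.99 and 6.80 CPM and 4.23, 3.16 and 25.4 CPM in the untreated, SiO2 day 14 and BLM day 63 groups. Both were singled out after their values were seen.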
